A study of Mus musculus with 144 samples.

Results

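The Toll-like receptor genes Tlr1, Tlr2, Tlr3, Tlr4, Tlr7, Tlr9 and Tlr13, the co-receptor genes Cd14 and Ly86 and the adaptor gene Myd88 were followed in single microglia of the mouse retina. They were the 10 rows of the expression table with these gene names, 7 of them receptor genes, out of 55364 genes. Toll-like receptors are the pattern receptors through which microglia sense microbial and damage-derived molecules. Tlr1, Tlr2 and Tlr4 sit at the cell surface, where Tlr2 pairs with Tlr1 or Tlr6 to bind lipopeptides and Tlr4 binds lipopolysaccharide. Tlr3, Tlr7, Tlr9 and Tlr13 sit in endosomes and bind nucleic acids, and need the chaperone Unc93b1 to get there. Cd14 hands lipopolysaccharide and other ligands to the receptors, Ly86 (MD-1) is the secreted partner of the receptor homologue Cd180, and Myd88 is the adaptor of most of these receptors, with Tlr3 using Ticam1 in its place.

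The cells were sorted one per well from retinas of Iba1-EGFP mice, in which the Iba1 promoter, active in microglia and other macrophages, drives a green fluorescent protein. The groups were PBS (mice of 10 to 14 weeks), ripasudil at 1 mg/kg (the low dose, mice of 14 weeks) and ripasudil at 10 mg/kg (the high dose, mice of 12 weeks). Ripasudil inhibits the kinases ROCK1 and ROCK2. Each group had 48 cells, 16 on each of 3 plates, and dose, age and the block of wells used cannot be told apart. The labels did not say whether the eyes were injured, and named no animal, so each group counts as 1 sample and no test over cells was made.

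Of 144 cells, 140 had at least 1000 genes at 1 FPKM or more and were kept: 46 PBS cells and 47 cells at each dose of ripasudil. Assigned reads per kept cell ran from 30204 to 4668733. The number of genes detected per cell (1 FPKM or more) had a median of 3143 in PBS cells, 2418 in low-dose cells and 2264 in high-dose cells. Csf1r was detected in 100% of the kept cells, Tmem119 in 88.6%, P2ry12 in 77.9%, Fcrls in 59.3% and Sall1 in 23.6%, and every kept cell had at least 3 of 10 microglial markers. These markers summed to between 23.6 and 15401 FPKM per cell. Since no kept cell failed this count, it cannot separate microglia from other cells. Rod photoreceptor markers, at least 3 per cell, were present in 7 PBS, 8 low-dose and 11 high-dose cells, and at least 3 of 7 border macrophage markers in 4 PBS, 4 low-dose and 3 high-dose cells. At least 3 of 8 neutrophil markers were present in 9 PBS, 8 low-dose and 8 high-dose cells, and at least 3 of 6 Mueller glia markers in 6 PBS, 3 low-dose and 5 high-dose cells. The Mueller glia markers (Glul, Rlbp1, Slc1a3, Apoe, Dkk3 and Clu) summed to at most 28840 FPKM. Monocyte markers summed to at most 1457 FPKM, dendritic cell markers to 2138 FPKM, and T and NK cell markers to 7.14 FPKM in any cell. The dendritic list shared Siglech, detected in 82.9% of kept cells, with the microglial list. What each gene added to these sums was not tested. The 25 cells with neutrophil markers made up 10 of the 28 cells with Tlr13 at 10 FPKM or more and 13 of the 56 with Tlr2 at that level. The neutrophil list held S100a8 and S100a9. As described below, these were above 0 in all 21 other wells that shared a plate column with a cell very high in them. How many of the 25 cells reached 3 markers only through these genes was not counted. The part of these other markers in the results was not tested.

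The bases just before the gene start were available from RefSeq (GRCm38.p6) for 7 of the 10 genes. For 5 of them the 90 bases lying before both the RefSeq start and the start in the expression table are shown, because they are the most widely detected gene with an entry (Ly86), the main surface receptor (Tlr2), the receptor that differed most between the high dose and PBS (Tlr1), and the most and least widely detected endosomal receptors (Tlr13 and Tlr9). Capitals mark matches to motifs searched on both strands. Ly86 lies at chr13:37345118-37345207 (plus strand), Tlr2 at chr3:83841768-83841857 (minus strand), Tlr1 at chr5:64933564-64933653 (minus strand), Tlr13 at chrX:106143114-106143203 (plus strand) and Tlr9 at chr9:106222508-106222597 (plus strand).
Ly86: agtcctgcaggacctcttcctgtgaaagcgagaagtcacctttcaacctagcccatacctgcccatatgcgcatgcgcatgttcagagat
Tlr2: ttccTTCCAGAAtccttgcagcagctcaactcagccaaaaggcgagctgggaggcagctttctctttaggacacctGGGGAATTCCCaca
Tlr1: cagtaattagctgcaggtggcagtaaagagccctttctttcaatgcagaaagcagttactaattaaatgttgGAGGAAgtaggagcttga
Tlr13: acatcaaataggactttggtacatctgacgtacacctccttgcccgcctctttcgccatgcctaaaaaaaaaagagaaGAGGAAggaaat
Tlr9: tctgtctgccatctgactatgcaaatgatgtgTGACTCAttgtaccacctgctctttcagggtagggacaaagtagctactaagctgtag

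The motif GAGGAA, the core bound by PU.1 (a factor of the macrophage lineage), was found once each in Tlr1 and Tlr13, ending 13 and 7 bases before the start. Of 32851 RefSeq promoters, 8.93% held it in the same 90 bases. Tlr2 held a match to TTNCNNAA, a C/EBP-type motif found in 13.1% of promoters, and a stretch near its start in which 2 overlapping matches to the NF-kB consensus (1.35% of promoters) fell. Tlr9 held a match to TGANTCA, an AP-1-type motif found in 2.37%. None of the 5 windows held the TATA box TATAAA (5.12%). These are matches of letters in a window and were not tied to binding.

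Tlr1 and Tlr6 are near copies in part of their coding sequence, so some of their reads cannot be told apart. Their longest identical stretch was 229 bases, and 13.6% of the distinct 50-base words of Tlr1 transcripts also occurred in Tlr6. The coding bases across one edge of that stretch are shown, with the base that differs in capitals, for Tlr1 at chr5:64925726-64925805 and Tlr6 at chr5:64954017-64954096 (both minus strand, GRCm38).
Tlr1: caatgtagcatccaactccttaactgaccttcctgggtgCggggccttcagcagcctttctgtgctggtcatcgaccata
Tlr6: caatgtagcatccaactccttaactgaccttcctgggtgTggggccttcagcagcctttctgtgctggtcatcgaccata
No 50-base word of Ly86, Cd14, Tlr2, Tlr7, Tlr9 or Tlr13 occurred in another gene's transcripts. In Tlr4 0.216% did. In Tlr1 15.4% did, in transcripts of 307 other genes, Tlr6 among them. Tlr3 shared 5.3% with Gm45542 and Myd88 7.42% with Acaa1a. Both partners lie on the opposite strand and overlap exons of Tlr3 and Myd88, and the use of strand was not given in the sources used here.

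The levels of the family spanned from nearly every cell to almost none. FPKM is scaled to gene length, so levels of different genes can be set side by side, and levels are means of log2(FPKM + 1) over the 140 cells. Ly86 was highest, at 7.71 ± 2.99 (SD over 140 cells) and 97.9% of cells detected. Cd14 followed at 5.26 ± 3.72 and 82.1%, and Tlr2 at 3.43 ± 3.60 and 53.6%. Among these co-receptors and receptors, Ly86 stood apart: its lowest mean over the 9 sets of 1 group on 1 plate (6.51) was above the highest for Cd14 (6.31).

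Below them, Myd88 was at 1.69 (27.9% of cells), Tlr13 at 1.51 (26.4%), Tlr7 at 1.33 (24.3%) and Tlr1 at 0.90 (16.4%). Tlr4 was at 0.57 (11.4%), Tlr3 at 0.31 (7.14%) and Tlr9, the receptor for unmethylated CpG DNA, at 0.05 (1.43%, or 2 cells). The ranges of each neighbouring pair from Cd14 down overlapped over the 9 sets, although Cd14 was above Tlr2, and Tlr2 above Myd88, in 9 of 9 sets. The order of Myd88, Tlr13 and Tlr7 held in only 6 and 5 of 9 sets for the successive pairs.

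**Figure D1:**
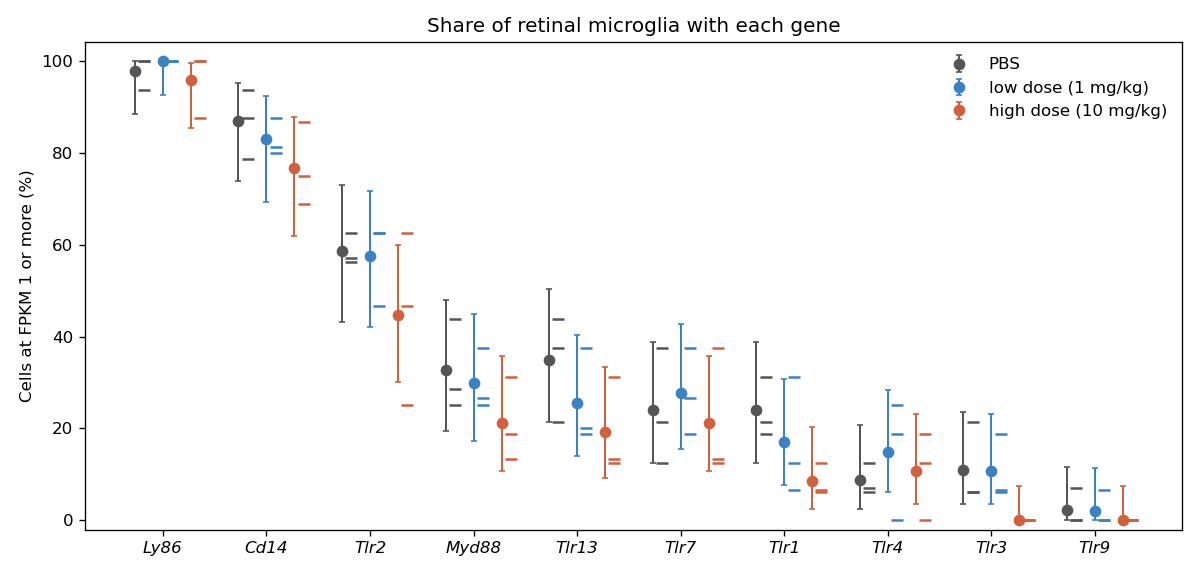
Percentage of kept cells at 1 FPKM or more for each gene (x axis, ordered by mean level) in PBS, low-dose and high-dose cells. Points are the group's share with its exact 95% Clopper-Pearson interval, which covers counting error only, and dashes are the shares on plates 1 to 3. Ly86 and Cd14 were widely detected in all groups. Tlr3 and Tlr9, detected in only 10 and 2 of the 140 cells, were in 0 of 47 high-dose cells.

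Cells differed widely in the level of a gene. Tlr2 was at 10 FPKM or more in 56 cells, between 1 and 10 FPKM in 19, and under 1 FPKM in 65, of which 21 were at 0. Where it was at 10 FPKM or more its median was 236 FPKM. For Tlr7, the receptor for single-stranded RNA, 26 cells were at 10 FPKM or more with a median of 68.6 FPKM, 8 were between 1 and 10, and 74 were at 0. Cd14 was more spread, with 80 cells at 10 FPKM or more, 35 between 1 and 10, and 25 under 1 FPKM. Even Ly86, above 0 in all 140 cells, was under 10 FPKM in 25 of them. Low values should be read with a feature of the plates. A single cell on each plate, 1 in each group, carried very high levels of the neutrophil genes S100a8 and S100a9, which summed to 79114 FPKM in a PBS cell of plate 1, 118644 FPKM in a low-dose cell of plate 2 and 61267 FPKM in a high-dose cell of plate 3. All 21 other wells of the same plate columns had these genes above 0, against 5 of 15 wells of the same rows and 19 of 105 other wells. Values in the same-column wells were 0.653 to 347 FPKM. For Tlr2, 81.4% of cells under 10 FPKM were above 0 where another cell of the plate column was at 10 FPKM or more, and 42.9% where none was. For Tlr7 these shares were 43.5% and 22.2%, for Tlr4 26.3% and 10%, and for Tlr13 48.2% and 44.8%. Why was not tested, and for the members the number of cells at 10 FPKM or more in each group is therefore given beside the share at 1 FPKM.

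**Figure D2:**
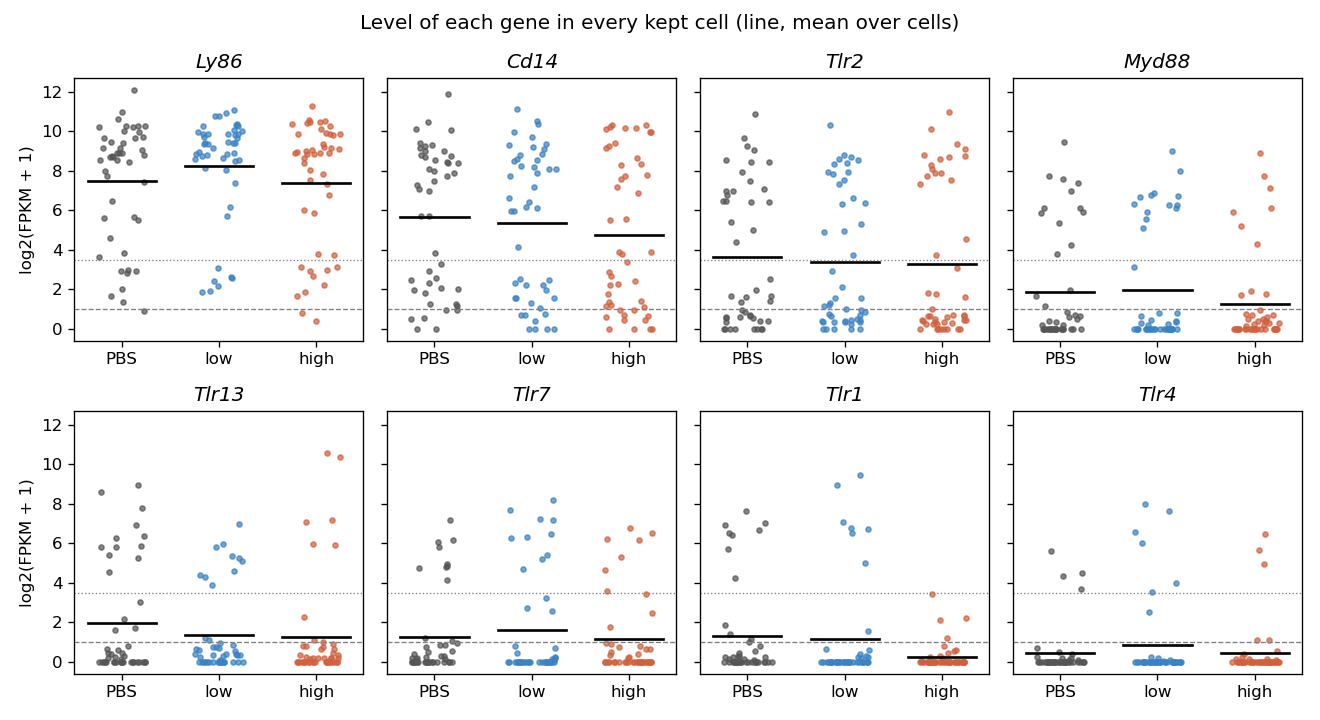
Level of 8 genes, as log2(FPKM + 1), in each of the 140 kept cells of the PBS, low-dose and high-dose groups. Horizontal bars are means over cells, the dashed line is 1 FPKM and the dotted line 10 FPKM. No high-dose cell lies above the dotted line for Tlr1, against 8 PBS and 7 low-dose cells.

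Among the surface receptors, Tlr1 showed the clearest difference at the high dose. It was detected in 11 of 46 PBS cells (23.9%, 95% interval 12.6 to 38.8), 8 of 47 low-dose cells (17.02%, 7.65 to 30.8) and 4 of 47 high-dose cells (8.51%, 2.37 to 20.4). The highest value was 199 FPKM in PBS cells, 717 FPKM in low-dose cells and 9.89 FPKM in high-dose cells, with medians at or close to 0 in each group. The 9.89 FPKM belonged to the kept cell with the fewest assigned reads, 30204. The plate 1 high-dose value, 3.30 FPKM, belonged to a cell with 90617 reads. A given FPKM stands for fewer reads in such cells, so the thresholds of 1 and 10 FPKM are not equal in reads across cells. Where detected, Tlr1 had a median of 712.5 reads. At 10 FPKM or more there were 8 PBS, 7 low-dose and 0 high-dose cells, so high-dose cells overlap PBS and low-dose cells only below 10 FPKM. The limit that 0 of 47 allows is 6.38% of cells.

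The mean level of Tlr1 was 0.26 in high-dose cells and 1.30 in PBS cells, a difference of -1.05 that was negative on each plate (-1.59, -0.61 and -0.93 on plates 1 to 3). Adjusted for how many genes each cell had detected, it was -0.81, and with a pseudocount of 0.1 or 10 in place of 1 it was -1.67 or -0.54. No other member had a difference of -1 or below with the same sign on all plates, which 8.08% of the 8242 genes tested had. In the other comparisons no member reached that size on all plates, which 2.92% of genes did for the low dose against PBS and 3.36% for the high against the low dose. Of the 1286 genes with 13 to 17 cells at 10 FPKM or more in all, 1.94% had no such high-dose cell, 0.233% no low-dose cell and 0.156% no PBS cell. For the high against the low dose the Tlr1 difference was -0.90, negative on all plates, and for the low dose against PBS it was -0.14, with plates at -1.29, 1.30 and -0.47.

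Tlr6, the near copy and the other partner of Tlr2, was detected in 9 PBS, 6 low-dose and 1 high-dose cell. In PBS all 9 Tlr6 cells also had Tlr1, and in the low dose all 6, while the 1 high-dose cell did not. At 10 FPKM or more, Tlr6 was found in 1 PBS, 3 low-dose and 1 high-dose cell. All 3 low-dose cells also had Tlr1 at that level, and neither the PBS nor the high-dose cell did. The difference of Tlr6 between high dose and PBS was -0.37, negative on all plates. Because of the shared sequence these 2 genes are not independent measurements.

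Tlr2, the lipopeptide receptor, was detected in 27 of 46 PBS cells (58.7%, 43.2 to 73.0), 27 of 47 low-dose cells (57.4%, 42.2 to 71.7) and 21 of 47 high-dose cells (44.7%, 30.2 to 59.9). The lowest, median and highest values were 0, 2.17 and 1876 FPKM in PBS cells, 0, 1.49 and 1275 FPKM in low-dose cells and 0, 0.599 and 2050 FPKM in high-dose cells. Cells at 10 FPKM or more were 20 under PBS, 19 under the low dose and 17 under the high dose. The groups spanned similar ranges.

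The gap between the high-dose and PBS shares was widest on plate 3, where 4 of 16 high-dose and 8 of 14 PBS cells had Tlr2. On plate 1 the share was also lower at the high dose, in 7 of 15 high-dose and 9 of 16 PBS cells, and on plate 2 it was equal, in 10 of 16 high-dose and 10 of 16 PBS cells. The mean level differed by -0.34 between high dose and PBS, with plates at 0.53, 0.89 and -2.47, and by 0.74 without plate 3. For the low dose against PBS it was -0.24 and negative on all plates, but 0.30 after adjustment for detected genes.

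Tlr4, the lipopolysaccharide receptor, was found in 4 of 46 PBS cells (8.70%, 2.42 to 20.8), 7 of 47 low-dose cells (14.9%, 6.20 to 28.3) and 5 of 47 high-dose cells (10.6%, 3.55 to 23.1). Its highest values were 47.4 FPKM in PBS cells, 254 FPKM in low-dose cells and 88.7 FPKM in high-dose cells. It was at 10 FPKM or more in 4 PBS, 6 low-dose and 3 high-dose cells. No low-dose or high-dose cell of plate 1 had it at 1 FPKM. Its mean level was 0.44 in PBS cells, 0.83 in low-dose cells and 0.44 in high-dose cells.

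The endosomal receptors split into rarely and moderately detected genes. Tlr3, which binds double-stranded RNA, was in 5 of 46 PBS cells (10.9%, 3.62 to 23.6), 5 of 47 low-dose cells (10.6%, 3.55 to 23.1) and 0 of 47 high-dose cells, which allows a share of up to 6.38%. Its highest values were 105 FPKM in PBS cells, 57.1 FPKM in low-dose cells and 0.355 FPKM in high-dose cells. Of the 10 cells with Tlr3, 4 PBS and 2 low-dose cells were at 10 FPKM or more, so the difference rests on few cells. How many equally rare genes also lacked a high-dose cell was not counted. Tlr9 was at 8.87 FPKM in 1 PBS cell, 4.91 FPKM in 1 low-dose cell and under 1 FPKM in the other 138 cells.

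Tlr13, which senses bacterial ribosomal RNA in mice, was detected in 16 of 46 PBS cells (34.8%, 21.4 to 50.2), 12 of 47 low-dose cells (25.5%, 13.9 to 40.3) and 9 of 47 high-dose cells (19.1%, 9.15 to 33.3). At 10 FPKM or more there were 12 PBS, 10 low-dose and 6 high-dose cells. Its highest values ran the other way. They were 490 FPKM in PBS cells, 124 FPKM in low-dose cells and 1542 FPKM in high-dose cells.

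A pair of high-dose cells, at 1542 FPKM on plate 2 and 1317 FPKM on plate 3, stood far above the rest, and the 3 highest cells held 91.8% of the group's summed Tlr13. Both cells of the pair were in well H6 of their plates. They had 1332 and 1177 detected genes, against a high-dose median of 2264. The mean log2 level was lower in high-dose than in PBS cells (-0.72, plates -1.47, -0.85 and 0.28). The mean FPKM was higher, 69.6 FPKM in high-dose cells and 36.2 FPKM in PBS cells. One of the PBS values, 390 FPKM, belonged to the PBS cell with the S100a8 and S100a9 transcripts. Without the 3 such cells the log2 difference was -0.54.

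Tlr7 was in 11 of 46 PBS cells (23.9%, 12.6 to 38.8), 13 of 47 low-dose cells (27.7%, 15.6 to 42.6) and 10 of 47 high-dose cells (21.3%, 10.7 to 35.7). The highest values were 142 FPKM in PBS cells, 290 FPKM in low-dose cells and 110 FPKM in high-dose cells, and medians were under 1 FPKM in each group. Cells at 10 FPKM or more numbered 9 under PBS, 10 under the low dose and 7 under the high dose. The 3 highest Tlr7 cells of the study, at 290, 208 and 150 FPKM, were low-dose cells in adjacent wells of a single row of plate 1. The Tlr7 difference of the low dose against PBS, 0.37, was -0.16 without that plate. The high-dose difference from PBS was -0.11, with plates of both signs.

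Among the co-receptors and the adaptor, Cd14 had a lower mean at each dose. It was detected in 40 of 46 PBS cells (87.0%, 73.7 to 95.1), 39 of 47 low-dose cells (83.0%, 69.2 to 92.4) and 36 of 47 high-dose cells (76.6%, 62.0 to 87.7). The lowest, median and highest values were 0, 145 and 3798 FPKM in PBS cells, 0, 71.0 and 2261 FPKM in low-dose cells and 0, 12.98 and 1286 FPKM in high-dose cells. The count at 10 FPKM or more was 28 in PBS, 28 in the low dose and 24 in the high dose. The medians followed the dose and the ranges overlapped.

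The mean level of Cd14 differed by -0.32 for the low dose against PBS and by -0.95 for the high dose against PBS, each negative on all plates. Both differences were positive once the number of detected genes was adjusted for, at 0.33 and 0.06. Cd14 was tied to that number across cells, with a Spearman correlation of 0.43 over 140 cells that share plates and depth. The part of the number of detected genes in the difference cannot be told apart from that of the dose, since the groups differed in it.

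Ly86 was in 45 of 46 PBS cells (97.8%, 88.5 to 99.9), 47 of 47 low-dose cells (100%, 92.5 to 100) and 45 of 47 high-dose cells (95.7%, 85.5 to 99.5). The lowest, median and highest values were 0.858, 425 and 4339 FPKM in PBS cells, 2.59, 645 and 2152 FPKM in low-dose cells and 0.329, 474 and 2478 FPKM in high-dose cells. It was at 10 FPKM or more in 38 PBS, 40 low-dose and 37 high-dose cells. Ly86 was close in the high dose and PBS, with a difference of -0.07 that ranged from -1.25 to 1.42 over plates. Its difference of 0.80 for the low dose against PBS was positive on plates 1 and 2 (1.22 and 1.69) and negative on plate 3 (-0.62). For the high against the low dose it was -0.87 and negative on all plates, but 0.39 in cells with at least 2000 detected genes.

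Myd88 was in 15 of 46 PBS cells (32.6%, 19.5 to 48.02), 14 of 47 low-dose cells (29.8%, 17.3 to 44.9) and 10 of 47 high-dose cells (21.3%, 10.7 to 35.7). At 10 FPKM or more there were 12 PBS, 13 low-dose and 7 high-dose cells. The highest values were 703 FPKM in PBS cells, 520 FPKM in low-dose cells and 483 FPKM in high-dose cells, so the ranges overlapped. Its mean level in high-dose cells differed by -0.63 from PBS, negative on all plates, and by -0.08 after adjustment for detected genes. Against the low dose the high dose differed by -0.75, also negative on all plates, and by -0.50 after adjustment.

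**Figure D3:**
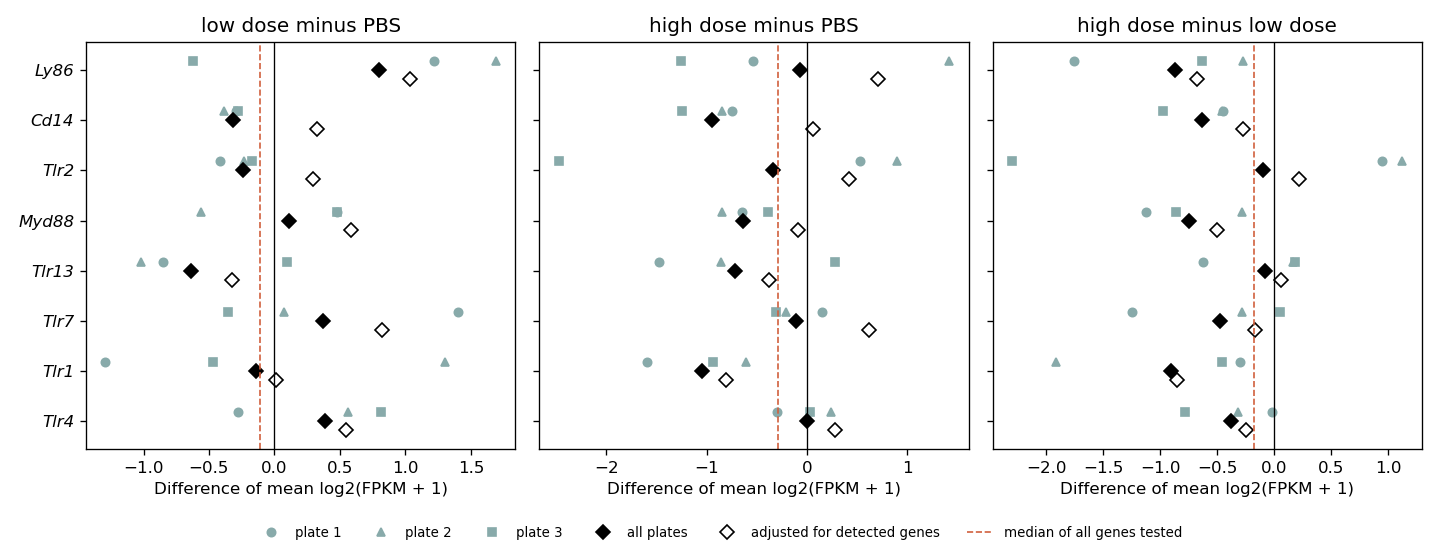
Difference of mean log2(FPKM + 1) for the 8 genes at 1 FPKM or more in at least 10% of kept cells, for the low dose against PBS, the high dose against PBS and the high against the low dose. Black diamonds use all plates, circles, triangles and squares are plates 1, 2 and 3, open diamonds are adjusted for the number of detected genes, and the dashed line is the median of the 8242 genes tested. For the high dose against PBS, Cd14, Myd88 and Tlr1 lie left of 0 on each plate, and the open diamond of Cd14 lies at 0.06.

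Taking the family as a whole, 8 of the 10 genes reached 1 FPKM in at least 10% of kept cells, and Tlr3 and Tlr9 did not. For the low dose against PBS, 2 of the 8 (Cd14 and Tlr2) were lower on all plates, or 25%, against 20.9% of all genes tested. For the high dose against PBS, 3 of the 8 (Cd14, Tlr1 and Myd88) were lower on all plates, or 37.5%, against 35.8% of all genes. Both shares were near those of all genes. For the high against the low dose, 5 of the 8 (Ly86, Cd14, Tlr1, Tlr4 and Myd88) were lower on all plates, or 62.5%, against 25.5% of all genes. Without cells holding at least 3 rod markers, 2 of the 8 were. None of the 8 was higher on all plates in any of the 3 comparisons, which 7.52%, 3.57% and 5.1% of all genes were in that order. The median difference of the 8 genes was -0.01, -0.49 and -0.56 in the 3 comparisons, and that of all genes -0.11, -0.29 and -0.17. After adjustment for detected genes the members' medians were 0.43, 0.17 and -0.26 and those of all genes 0.06, -0.0025 and -0.07. Without the 3 cells rich in S100a8 and S100a9, the counts were 2, 3 and 5 of 8 and the medians -0.04, -0.44 and -0.51. The low-dose and high-dose comparisons with PBS share the PBS cells and are not independent.

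Receptor genes were also counted per cell. Of the 7 receptor genes, PBS cells had a mean of 1.63 detected, low-dose cells 1.55 and high-dose cells 1.04. None was detected in 13 of 46 PBS, 11 of 47 low-dose and 20 of 47 high-dose cells. At least 2 were detected in 21 PBS cells (45.7%), 18 low-dose cells (38.3%) and 14 high-dose cells (29.8%). Counting only values of 10 FPKM or more, a PBS cell had a mean of 1.24 receptor genes, a low-dose cell 1.15 and a high-dose cell 0.702.

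The number of receptor genes followed the number of detected genes, with a Spearman correlation of 0.58 over the 140 cells, and with assigned reads the correlation was 0.19. Among cells with no receptor gene the median number of detected genes was 2851 under PBS, 1371 under 1 mg/kg and 1762 under 10 mg/kg. Cells with at least 1 had medians of 3290, 3266 and 2638 in the same order of groups. All 44 cells without a receptor gene had Csf1r, 43 had Ly86 and 31 had Cd14.

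**Figure D4:**
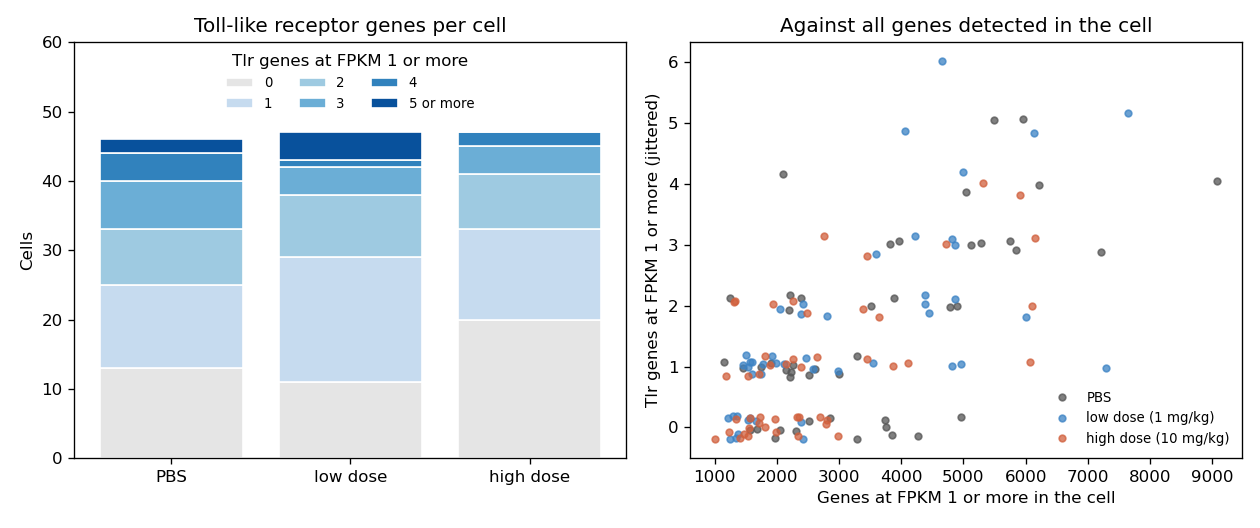
Left, cells of each group by the number of the 7 receptor genes at 1 FPKM or more. Right, that number (jittered) against the number of all genes detected in the cell, 1 point per cell. No receptor gene was found in 13 PBS, 11 low-dose and 20 high-dose cells, and cells with 4 or more mostly lie to the right.

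Cells with a receptor's transcript were also searched for transcripts of the proteins it works with. No protein was measured. Tlr2 and Cd14 were both detected in 64 cells, which is 85.3% of the cells with Tlr2 and 55.7% of those with Cd14. These are near the shares among all kept cells, 82.1% for Cd14 and 53.6% for Tlr2. With both at 10 FPKM or more there were 46 cells, of 56 with Tlr2 and 80 with Cd14. Of the 16 Tlr4 cells, 15 had Cd14, 12 had Myd88 and 5 had Ly96 (MD-2, the subunit that binds lipopolysaccharide). Ly96 was in 15% of all kept cells. The 12 with Myd88 are 75% of the Tlr4 cells, against 27.9% of all kept cells, and at 10 FPKM or more 9 of the 13 Tlr4 cells had Myd88. Cells with Tlr4, Cd14, Ly96 and Myd88 together numbered 4. Of the 23 Tlr1 cells, 14 had Tlr2, or 60.9%, against 53.6% of all kept cells. All 34 Tlr7 cells and all 37 Tlr13 cells had Unc93b1, which 94.3% of all kept cells had. Cd180, the partner of Ly86, was in 42 cells, all with Ly86, which 97.9% of all kept cells had.

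Receptors of the surface and of the endosome met in 48 cells: 20 PBS, 16 low-dose and 12 high-dose cells. All 10 Tlr3 cells also had Tlr2. Tlr2 was in 53.6% of all kept cells. Tlr7 and Tlr13 shared 16 cells, 47.1% of the Tlr7 cells and 43.2% of the Tlr13 cells. Among all kept cells, 26.4% had Tlr13 and 24.3% had Tlr7. The number of receptor genes followed the number of detected genes (Spearman correlation 0.58). Neither these overlaps nor those of the preceding paragraph were adjusted for it. Levels of the genes were only loosely related across cells once group, plate and detected genes were taken out. The 3 highest of the 45 pairwise residual correlations were 0.31 for Tlr4 with Myd88, 0.28 for Tlr2 with Tlr13 and 0.23 for Tlr7 with Myd88, over 140 cells that share plates and depth. Without cells holding at least 3 rod markers they were 0.28, 0.31 and 0.15. The order changed in cells of 2000 detected genes or more, where the highest were Ly86 with Cd14 at 0.40, Cd14 with Tlr2 at 0.28 and Tlr2 with Tlr13 at 0.26, and Tlr4 with Myd88 was at 0.23.

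By the same residual measure, genes most like each widely detected member (of 2290 genes in at least 25% of cells) were named, at most 2 for each. For Ly86 this was C1qb, a chain of complement C1q (0.50). For Cd14 it was the lysosomal protective protein gene Ctsa (0.51). For Tlr2 they were Mat2a, which makes S-adenosylmethionine (0.44), and the long non-coding RNA Particl (0.44). Mat2a and Particl overlap on opposite strands of chromosome 6, so they may be the same reads. For Tlr13 they were Ptprc, the leukocyte antigen CD45 (0.43), and Sptlc2, a subunit of serine palmitoyltransferase (0.41). For Myd88 they were the mitochondrial import factor Grpel1 (0.39) and Plekhj1 (0.37). Unadjusted Spearman correlations within a group varied, given here for PBS, low-dose and high-dose cells in that order. They were 0.65, 0.39 and 0.19 for Ly86 with C1qb and 0.45, 0.30 and 0.11 for Tlr13 with Ptprc. For Cd14 with Ctsa they were 0.53, 0.76 and 0.43, and for Tlr2 with Mat2a 0.67, 0.56 and 0.49. Myd88 with Grpel1 was at 0.56, 0.41 and 0.31.

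The rest of the pathway was described from a list of 40 genes, of which 25 were detected in at least 10% of kept cells. For the high dose against PBS, 14 of the 25 were lower on all plates (56%, against 35.8% of all genes). Of the 25, 1 gene, Ikbkb, was higher on all plates, against 3.57% of all genes. For the low dose against PBS, 5 were lower (20%, against 20.9% of all genes). Higher on all plates were 3, against 7.52% of all genes. For the high against the low dose 6 were lower (24%, against 25.5% of all genes) and 0 higher (against 5.1%). Both shares of lower genes were near those of all genes. The median of the 25 differences was -0.37 for the high dose against PBS and 0.02 after adjustment for detected genes.

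Hsp90b1 (gp96), the chaperone that folds most of these receptors, had the largest negative difference of the list. It was in 38 of 46 PBS, 34 of 47 low-dose and 30 of 47 high-dose cells, and at 10 FPKM or more in 30 PBS, 29 low-dose and 17 high-dose cells. High-dose cells averaged 3.16 and PBS cells 5.12. The difference was -1.96, with plates at -1.71, -1.98 and -2.27, and -0.84 after adjustment. The low-dose mean was 5.02. Between the high and the low dose the difference was -1.86, and -1.53 after adjustment. Unc93b1, the trafficking chaperone, had a mean level of 6.26 in high-dose cells and 6.94 in PBS cells, a difference of -0.68 that was negative on all plates but 0.11 after adjustment.

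Irf8, a myeloid transcription factor, was in 37 of 46 PBS, 29 of 47 low-dose and 30 of 47 high-dose cells. It differed by -1.29 between high dose and PBS, with plates at -0.58, -0.57 and -2.80, and by -0.77 after adjustment. Irf5, which acts downstream of Myd88, differed by -0.87, negative on all plates, and by 0.02 after adjustment. Irak1, a kinase recruited by Myd88, was in 10 PBS, 15 low-dose and 3 high-dose cells and differed by -0.73 between high dose and PBS and by -1.41 between high and low dose, negative on all plates in both. Ikbkb, a kinase that releases NF-kB, was in 6 PBS, 14 low-dose and 10 high-dose cells, and differed by 0.50 for the low dose and 0.35 for the high dose against PBS, positive on all plates. It reached 10 FPKM in 4 PBS, 6 low-dose and 5 high-dose cells. Its mean FPKM ran the other way, at 0.875 times the PBS mean in the low dose and 0.794 times in the high dose.

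Among the inhibitors of the pathway, Tnfaip3 (A20), a brake on NF-kB signalling, was in 11 PBS, 11 low-dose and 9 high-dose cells. Its high-dose difference from PBS was 0.12, and 0.61 after adjustment, and its mean FPKM in high-dose cells was 3.38 times that in PBS cells. Tollip and the deubiquitinase gene Cyld, each in 19 cells, differed by -0.14 and 0.17. Signs differed between plates for all 3. Of the other receptors, Tlr12 was in 6 cells with a high-dose difference from PBS of -0.15, and Tlr5 and Tlr11 were detected in 0 of 140 cells.

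**Figure D5:**
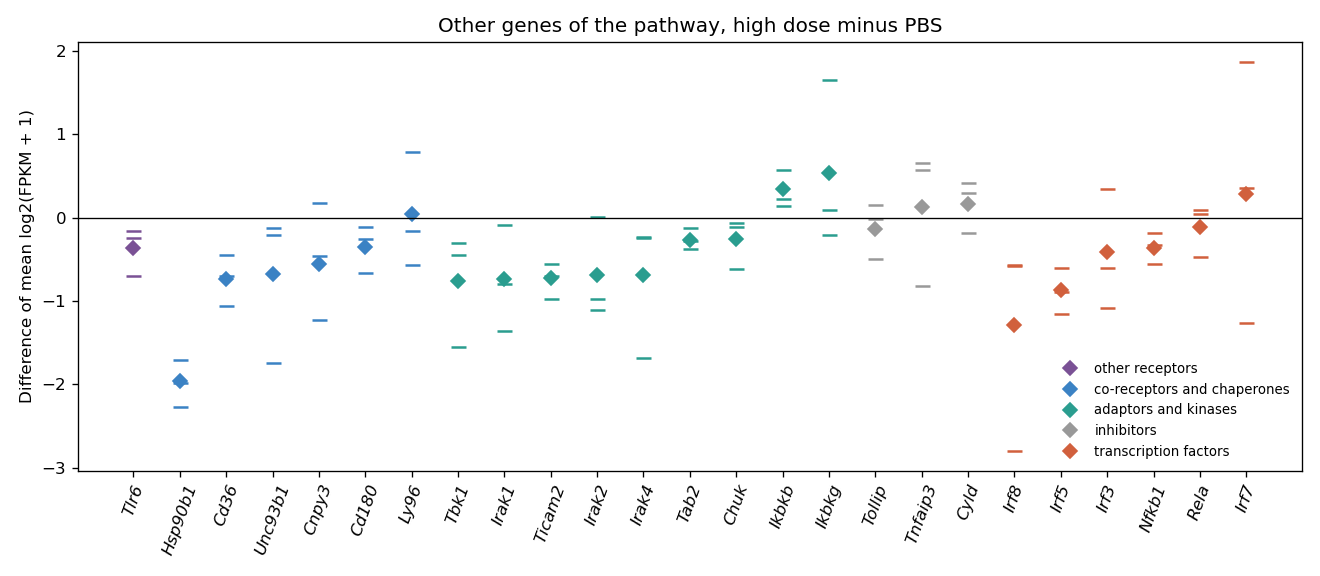
Difference of mean log2(FPKM + 1) between high dose and PBS for the 25 other pathway genes detected in at least 10% of kept cells, coloured by role. Diamonds use all plates and dashes are single plates. Hsp90b1 lies at -1.96 with its plates close together, whereas plate 3 alone brings Irf8 to -2.80.

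Cells with Gpr84, Tnf or Il1a were counted for Cd14 and Tlr2. Gpr84, which binds medium-chain fatty acids, was detected in 98 cells, 86 of them with Cd14 and 63 with Tlr2. Tnf was in 91 cells, 79 with Cd14 and 60 with Tlr2, and Il1a had 89 cells with Cd14 and 62 with Tlr2. Cd14 was thus in 87.8% of Gpr84, 86.8% of Tnf and 87.3% of Il1a cells, against 82.1% of all kept cells, and Tlr2 in 64.3%, 65.9% and 60.8% of them in the same order, against 53.6% of all. Levels of Cd14 and Tlr2 rose with the number of detected genes (Spearman correlations 0.43 and 0.36). The shares were not adjusted for that number.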

How the data were processed

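Single cells were lysed and their cDNA amplified in 1 tube before tagmentation, per the labels' protocols. The authors deposited FPKM (per gene length and per assigned reads) for 55364 genes in 144 cells. The submitters' processing notes name featureCounts 1.6.1, STAR 2.7.2b, the trimmers cutadapt 1.16, Trimmomatic 0.36 and Trim Galore 0.4.4, and the build GRCm38.p6 (mm10). Their settings, and whether counting used strand, are not given in the sources used here. FPKM multiplied by length summed to one constant per cell, and its most frequent positive value was taken as 1 read, which gave assigned reads. A median of 53.1% of values were whole reads within 0.01 read, so no count model was used.

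The members and lists were chosen with earlier results of these data known. Cells with at least 1000 genes at 1 FPKM or more were kept. A gene was detected at 1 FPKM or more. A level was the mean of log2(FPKM + 1), a pseudocount of 1 that understates differences of low genes, and a difference was a difference of such means. Genes in at least 10% of kept cells (8242) formed the background. The adjusted difference came from a linear fit with log2 detected genes as a second term. Shares carry exact Clopper-Pearson 95% intervals. A share of 0 was given the limit that 3 counts allow. Intervals and limits cover the counting error of cells only, since no animal was named and each group counts as 1 sample. No molecular identifiers were named. No doublet caller was run on these sorted single cells.

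All members were named. Pathway genes were named if the difference of a dose from PBS was at least 1 with the same sign on all 3 plates, or if they were among the 2 most widely detected of their sub-list. Tied genes were both named. Other pathway genes (Cd180, Ly96 and the undetected receptors) were named after their values were seen. Likeness was the Pearson correlation of residuals after a fit on group, plate and log2 detected genes, and the 2 highest genes per member were taken. Some genes are not reported here. The difference of means, the read estimate and the residual fit were tested on simulated data. The fit behind the adjusted difference was not. Alternatives covered cell and gene filters, pseudocounts, thresholds, plates, thinning to 300000 reads and cells with rod or border macrophage markers. Python 3.11.15, numpy 2.4.6, pandas 2.3.3, scipy 1.17.1 and matplotlib 3.10.9 were used. Promoter sequences were RefSeq's (GRCm38.p6) and transcripts GENCODE's.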

Additional observations from a re-analysis of the deposited data

Results flagged for a closer look

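Ly86 was above 0 in the 4 cells left out for having under 1000 detected genes, which no comparison used. It was at 0.846 and 1.10 FPKM in 2 PBS cells of plate 3, at 1.599 FPKM in a low-dose cell of plate 1 and at 1148 FPKM in a high-dose cell of plate 1. The high-dose cell lies within the range of kept cells, and the other 3 lie near their lowest values.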

How the results depend on the processing

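With 1 sample per group, the alternatives show how far descriptions move and not how sure they are. The low-dose difference from PBS had no stable sign: the median over the measured members, -0.01, became 0.58 in cells with at least 2000 detected genes, 0.43 adjusted for detected genes, -0.24 with genes in at least 25% of cells, -0.21 without cells with border macrophage markers, and -0.13 and -0.24 without plates 1 and 2. The number of members lower on all plates, 2, became 0 with no filter on cells, when cells needed 2000 detected genes, when adjusted for detected genes and without cells with rod markers, and 1 with a pseudocount of 0.1, with ratios of mean FPKM and without cells with border macrophage markers. For the high dose against PBS the median, -0.49, became 0.17 adjusted for detected genes (with 1 gene lower on all plates), -0.63 with genes in at least 25% of cells, -0.092 as a log2 ratio of mean FPKM, -0.68 and -0.18 with pseudocounts of 0.1 and 10, and -0.84 without plate 2. For the high against the low dose the median, -0.56, kept its sign in the alternatives run and was -0.85 in cells of 2000 genes or more and -0.26 adjusted for detected genes, while the 5 genes lower on all plates became 3 with genes in at least 25% of cells, 2 with ratios of mean FPKM, 2 without cells with rod markers and 3 without cells with border macrophage markers. The mean level of the 10 members, 2.42 for PBS, 2.43 for low-dose and 1.97 for high-dose cells, was 2.68 for PBS and 3.07 for low-dose cells of 2000 genes or more. With a pseudocount of 0.1 the PBS value was 0.60, the low-dose value 0.52 and the high-dose value -0.086, and with 10 the PBS value was 4.61, the low-dose value 4.65 and the high-dose value 4.398. Members in at least 25% of high-dose cells numbered 3, and 5 when cells needed 2000 genes, without plate 1 or without cells with rod markers, 6 when thinned to 300000 reads, and 8 counting any FPKM above 0, as in PBS cells, where 5 became 8. The other 107 such values moved by less than the spread between plates or within 1.5 times the count. The cause of these shifts was not tested. Leaving out the 3 cells with S100a8 and S100a9, and those with border macrophage markers, was added after seeing the data. No paired analysis was possible because the replicate numbers only name single cells and no test was made over them. The groups do share plates: differences within plates stand beside the members' values, and with plates weighted equally the medians were -0.01, -0.49 and -0.56 and the Tlr1 difference between high dose and PBS -1.04.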
